A study of Homo sapiens with 6 samples.

Results

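The replication-dependent histones H3, H4 and H1 were represented by 33 of the 67528 transcript clusters (probe groups of 1 locus, here called features) on a human transcriptome array. A feature was included where every gene symbol in the platform annotation was H3C or H4C followed by a number, or H1-1 to H1-6. The rule itself uses symbols and no measured value, but it was drawn up with earlier results of these data known. No 2 of the 33 features held identical rows. H460 is an established human cell line from non-small cell lung cancer, and its total RNA was measured on 6 arrays. The control group was 3 arrays of H460 cells that received no radiation. The other group was 3 arrays of H460 cells irradiated with 7 Gy. No other agent or genotype is named for either group, and how long after irradiation the RNA was taken is not stated in the labels. Replicates are titled biological, without naming separate cultures, so each p-value measures the spread between these arrays.

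Replication-dependent histones are made mainly in S phase, when new DNA has to be packed into chromatin. H3 and H4 form the tetramer at the heart of the nucleosome, and H1, the linker histone, binds the DNA between nucleosomes. H3 and H4 are each encoded by many genes, and each H1 subtype by a gene of its own. These small intronless genes are gathered in clusters, and their mRNAs end in a conserved stem-loop in place of a poly(A) tail. Cyclin E with CDK2 activates NPAT, the shared coactivator of histone genes, at the start of S phase, and the stem-loop binding protein SLBP accompanies the mRNA through processing and translation. When DNA synthesis stops, these mRNAs are degraded rapidly.

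The 33 features carried 34 symbols between them, all protein-coding. The identifiers placed 27 features on chromosome 6, 5 on chromosome 1 and 1 on chromosome 12. A single symbol was given for 8 features and several for 25. The same 14 symbols were listed for 13 of the H4 features, and the same 10 symbols for 9 of the H3 features. Which of the listed genes such a feature measured is not settled by the annotation, and histone genes of 1 class are known for their near-identical coding sequences. These features are called here by the symbol listed first, as H3C12-first. The chromosome of that first symbol was the one in the identifier for 24 of 25. The exception, TC06001424, listed H4C15 first and was coded on chromosome 6. Values are log2 signals, and a difference is irradiated minus control.

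Array medians lay between 4.65 and 4.70. Correlations across features were 0.9955 to 0.9975 between arrays of the same group and 0.9938 to 0.9948 between groups, so no array stood apart. Of the cell markers, KRT8 (control mean 10.86, irradiated mean 10.85) and KRT19 (control mean 10.15, irradiated mean 10.31), keratins of simple epithelium, were bright in both groups. The epithelial adhesion gene EPCAM lay at 4.04 in both groups, near the median of 3.74 over the 23 background controls. These controls ranged from 2.17 to 11.67, the highest above all signals of the 33 H3, H4 and H1 features. Their median is therefore a rough guide to background and no floor. CDH1, also an epithelial marker, had control and irradiated means of 5.2 and 5.1. The brightest fibroblast, blood and endothelial markers were COL1A1 (6.5 in both groups), CD14 (6.2 and 6.0) and VWF (5.4 in both groups). Each of these was brighter than EPCAM and CDH1, and only the keratins were brighter than COL1A1. None of the 16 markers of epithelium, fibroblasts, blood and endothelium that were measured was called by limma, with or without moderation, and 4 had an unadjusted limma p under 0.05 (KRT18, KRT19, DCN and CD14, with log2 differences of -0.15, 0.17, 0.12 and -0.17).

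Most of the H3, H4 and H1 features were dimmer after 7 Gy. A feature was called where limma's test gave a Benjamini-Hochberg adjusted p under 0.05 over all transcript clusters. By that rule 22 of the 33 fell and 1 rose, while 10 did not pass. Over all transcript clusters 5.05% were called, with 2.8% lower and 2.25% higher. The median difference was -0.51 over the 33 features (range -1.68 to 1.14) and 0.03 over all transcript clusters. At least a 2-fold fall, with a call, was reached by 7 of the 33 and by 0.0533% of all transcript clusters. All 3 irradiated arrays lay below all 3 control arrays for 22 of the 33 features, against 9.41% of all transcript clusters. With 1 array left out, 17 to 20 of the 33 were called lower. The total over all transcript clusters dropped from 3411 calls to between 1559 (without control 1) and 2379 (without irradiated 1). In bulk RNA, fewer cells that hold these transcripts and less transcript in each cell cannot be told apart.

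**Figure D1:**
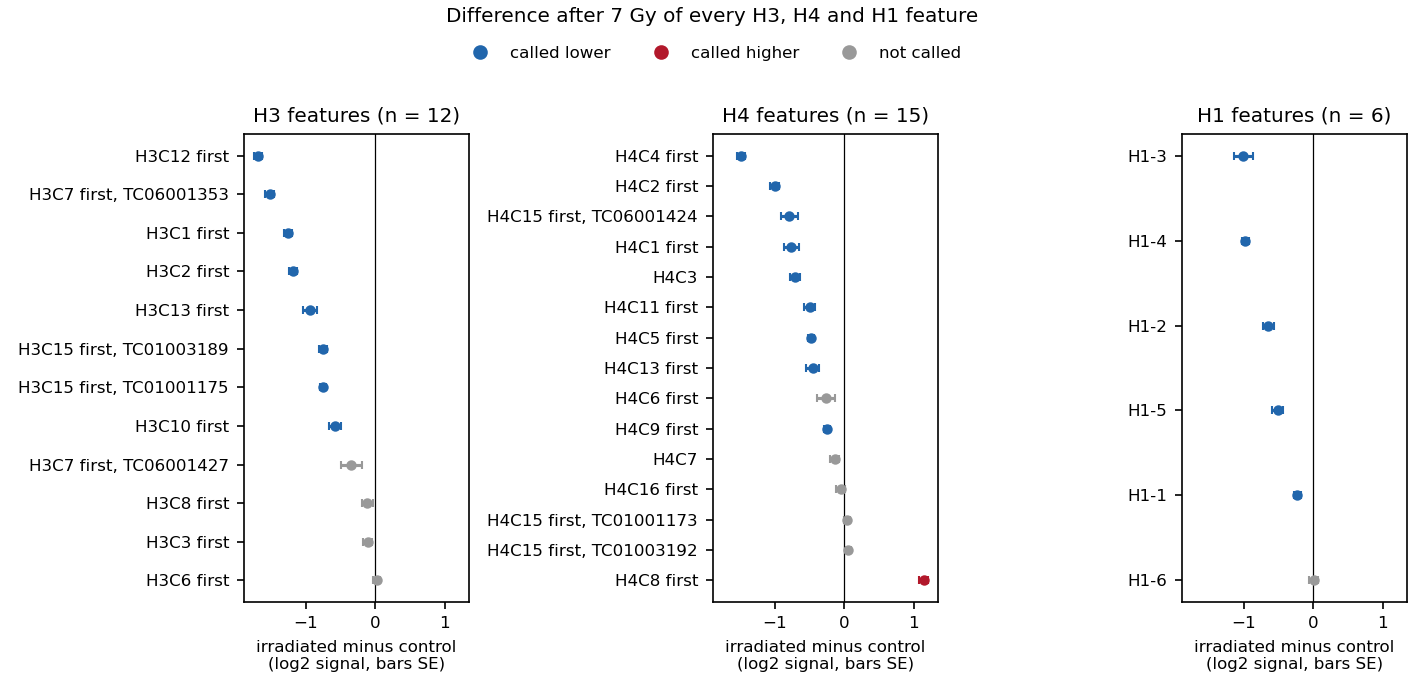
Difference of each of the 33 features, irradiated minus control in log2 signal, with 12 H3, 15 H4 and 6 H1 features from left to right. Points are estimates and bars are standard errors of the limma fit. The falls reach -1.68 for H3C12-first, and H4C8-first, at 1.14, is the single feature called higher.

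The largest fall belonged to an H3 feature. Of 12 H3 features 8 fell and 4 did not pass, and the median difference was -0.75. H3C12-first had signals of 9.41, 9.44 and 9.48 on the control arrays and 7.77, 7.66 and 7.84 on the irradiated arrays. The irradiated arrays lay far below the controls, with little spread in either group (control SD 0.04, irradiated SD 0.09, n = 3 arrays each). The fall was 3.21-fold (log2 difference -1.68, SE 0.06, limma adjusted p = 5.44e-05), the largest among the 33 features.

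H3C7-first (TC06001353) had control signals of 10.41, 10.28 and 10.34 and irradiated signals of 8.72, 8.93 and 8.85. It fell 2.85-fold (log2 difference -1.51, SE 0.07, limma adjusted p = 1.43e-04). H3C1-first had control signals of 8.0, 7.86 and 7.97 and irradiated signals of 6.71, 6.74 and 6.62. Every irradiated array was more than 1 log2 unit below every control array, and the fall was 2.38-fold (SE 0.06 on the log2 scale, limma adjusted p = 1.77e-04). H3C2-first had control signals of 8.68, 8.64 and 8.65 and irradiated signals of 7.37, 7.58 and 7.46. This feature fell 2.27-fold (log2 difference -1.18, SE 0.06, limma adjusted p = 2.64e-04), again with well separated groups.

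The H3 features coded on chromosome 1, the smaller histone cluster, fell too. H3C13-first fell by 0.93 on the log2 scale (SE 0.10, limma adjusted p = 0.00306). The pair that list H3C15 first fell by 0.75 each (SE 0.06 and 0.05, limma adjusted p = 0.00119 and 4.93e-04). Each of these 3 features lists the same 3 symbols, so they are not 3 separate genes' measurements with certainty. H3C10-first, on chromosome 6, fell by 0.58 (SE 0.09, limma adjusted p = 0.0111), but without control 3 its adjusted p was 0.0531.

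Not every H3 feature passed the test. H3C6-first had control signals of 5.96, 5.91 and 6.04 and irradiated signals of 5.96, 6.0 and 6.02. The groups overlapped, and the difference was 0.02 (SE 0.05, limma adjusted p = 0.855). A second H3C7-first feature (TC06001427) had control signals of 5.88, 5.41 and 5.71 and irradiated signals of 5.12, 5.26 and 5.60. Its groups also overlapped, with a difference of -0.34 (SE 0.15, limma adjusted p = 0.296). H3C8-first and H3C3-first gave differences of -0.11 and -0.10 (limma adjusted p = 0.544 and 0.461). Both were dim, and H3C3-first (control mean 3.19, irradiated mean 3.08) lay below the median of the background controls in both groups.

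Promoters of 2 H3 genes, each listed first by a feature that fell more than 2-fold, are shown because both hold the elements common to the class. They are the 120 bases before the annotated start in RefSeq (GRCh38.p14), on the coding strand. H3C1 lies at chr6:26020331-26020450 (plus strand) and H3C2 at chr6:26032100-26032219 (minus strand). Capitals mark CCAAT, the box bound by NF-Y, and TATAA, the core of the TATA box.
H3C1: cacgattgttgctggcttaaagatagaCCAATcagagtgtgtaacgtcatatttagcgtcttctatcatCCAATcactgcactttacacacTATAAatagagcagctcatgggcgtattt
H3C2: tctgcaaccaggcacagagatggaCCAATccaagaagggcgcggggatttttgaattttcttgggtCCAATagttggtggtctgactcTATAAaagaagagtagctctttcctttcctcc
CCAAT or its reverse complement ATTGG stood within 250 bases before the start of all 11 H3 genes that had a promoter entry, and of 32% of the 35116 promoters in the table. TATAA or its reverse complement TTATA was also found in all 11, and in 18.9% of all promoters. H3C11 and H3C12 had no entry. H3C6 and H3C3, first in features with differences of 0.02 and -0.10, held CCAAT as well. Their TATAA matches were on the reverse strand only, 156 and 245 bases before the start. H3C7 and H3C8 held TATAA forward, beginning 31 and 28 bases before the start. H3C8-first and TC06001427, which lists H3C7 first, were not called, whereas TC06001353, also H3C7-first, fell. These features each list 10 symbols, and a link of TATAA with the differences was not tested.

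H4, the partner of H3 in the tetramer, had a wider range, from -1.48 to 1.14. Of 15 H4 features 9 fell and 1 rose, and the median difference was -0.45. Leaving out control 1 lowered the number that fell to 5, and the other arrays left out gave 6 to 8. H4C8-first was the single riser under every array left out.

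H4C4-first had control signals of 8.41, 8.39 and 8.50 and irradiated signals of 6.96, 6.99 and 6.90. It showed the largest fall of the class, 2.79-fold (log2 difference -1.48, SE 0.05, limma adjusted p = 5.44e-05). H4C2-first had control signals of 5.83, 5.74 and 5.78 and irradiated signals of 4.71, 4.93 and 4.71. The fall was 2.00-fold (SE 0.07 on the log2 scale, limma adjusted p = 6.47e-04), with no overlap between the groups.

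H4C8-first went the other way. Its control signals were 6.62, 6.64 and 6.53, and its irradiated signals were 7.64, 7.80 and 7.78. All irradiated arrays lay about 1 log2 unit above the controls, and the rise was 2.21-fold (log2 difference 1.14, SE 0.06, limma adjusted p = 2.71e-04). This feature lists the same 14 symbols as H4C4-first and H4C2-first, so whether the transcript that rose came from H4C8 was not tested.

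TC06001424, which lists H4C15 first, had control signals of 10.19, 10.01 and 10.43 and irradiated signals of 9.56, 9.51 and 9.21. It fell 1.72-fold (log2 difference -0.79, SE 0.13, limma adjusted p = 0.0164), but its spread was wide, and the adjusted p was 0.0684 without control 1 and 0.0515 without control 3. H4C3, one of the 2 H4 features with a single symbol, had control signals of 10.55, 10.43 and 10.58 and irradiated signals of 9.73, 9.93 and 9.78. H4C3 fell 1.63-fold (log2 difference -0.70, SE 0.07, limma adjusted p = 0.00228), and its groups were well apart. The other single-symbol feature, H4C7, a divergent member of the class, lay at 2.41 to 2.67 on all arrays, below the background median, with a difference of -0.13 (limma adjusted p = 0.336).

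The other H4 features that fell were H4C1-first (log2 difference -0.76, limma adjusted p = 0.00857), H4C11-first (-0.49), H4C5-first (-0.48, limma adjusted p = 0.00158), H4C13-first (-0.45) and H4C9-first (-0.25). H4C1-first was not called without variance moderation (adjusted p = 0.0819 in the linear model of all features). H4C11-first had an adjusted p of 0.0148 with all arrays, 0.0717 without control 1 and 0.0638 without control 3. H4C13-first moved from 0.0357 to 0.124 or 0.125 on leaving out control 1 or 2, and to 0.0975 or 0.11 on leaving out irradiated 1 or 3. For H4C9-first the adjusted p of 0.0363 became 0.0707 to 0.117, depending on which of the 6 arrays was left out.

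On chromosome 1 the H4 features did not pass. TC01001173, listing H4C15 first, had control signals of 7.65, 7.63 and 7.65 and irradiated signals of 7.63, 7.73 and 7.68. TC01003192, also listing H4C15 first, had control signals of 7.47, 7.48 and 7.48 and irradiated signals of 7.5, 7.55 and 7.55. The differences were 0.04 and 0.06 (SE 0.05 and 0.04, limma adjusted p = 0.711 and 0.528), with overlapping groups for TC01001173 and slightly higher irradiated arrays for TC01003192. H4C16-first, on chromosome 12, gave -0.05 (limma adjusted p = 0.738) and H4C6-first -0.26 (limma adjusted p = 0.36).

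Promoters of 4 H4 genes are shown, because the feature named for H4C8 rose while those named for H4C5 and H4C4 fell and the one for H4C7 was dim. Again these are 120 bases before the start in RefSeq (GRCh38.p14), on the coding strand. H4C8 lies at chr6:26285535-26285654 (minus strand), H4C5 at chr6:26204490-26204609 (plus strand), H4C4 at chr6:26189113-26189232 (minus strand) and H4C7 at chr6:26246997-26247116 (minus strand). Capitals mark GGTCCG, the core of the H4 subtype element bound by HINFP, and TATAA, on either strand, with overlapping matches run together.
H4C8: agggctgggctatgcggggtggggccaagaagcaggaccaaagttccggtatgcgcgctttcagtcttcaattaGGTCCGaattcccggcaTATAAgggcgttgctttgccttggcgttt
H4C5: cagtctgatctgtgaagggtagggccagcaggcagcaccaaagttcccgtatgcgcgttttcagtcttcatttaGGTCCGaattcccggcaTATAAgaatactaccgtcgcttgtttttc
H4C4: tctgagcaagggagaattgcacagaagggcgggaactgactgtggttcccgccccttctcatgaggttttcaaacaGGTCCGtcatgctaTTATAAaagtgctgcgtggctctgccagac
H4C7: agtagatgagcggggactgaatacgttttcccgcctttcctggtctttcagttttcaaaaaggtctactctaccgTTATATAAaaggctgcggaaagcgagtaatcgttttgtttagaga
GGTCCG or its reverse complement CGGACC stood within 250 bases before the start in 12 of the 13 H4 genes with a promoter entry, all but H4C7. It was found in 9.43% of the 35116 promoters, in 1 of 11 H3 genes (H3C7) and in 0 of 6 H1 genes. In the 12 H4 promoters it read forward and began 44 to 47 bases before the start. At that place, which was set by these promoters, 45 of all promoters (0.128%) held it, the 12 included. H4C1 and H4C3 had no entry.

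The H4C8 and H4C5 promoters both held GGTCCG beginning 46 bases and TATAA beginning 29 bases before the start. Over 250 bases they were 71.5% identical, the third highest of 78 H4 pairs (median 47.4%), after H4C14 with H4C15 (100%) and H4C11 with H4C12 (98%). H4C8-first rose by 1.14 on the log2 scale, whereas H4C5-first had control signals of 9.91, 9.91 and 9.90 and irradiated signals of 9.39, 9.42 and 9.46. A match of letters is a description of the window and no measurement of binding.

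**Figure D2:**
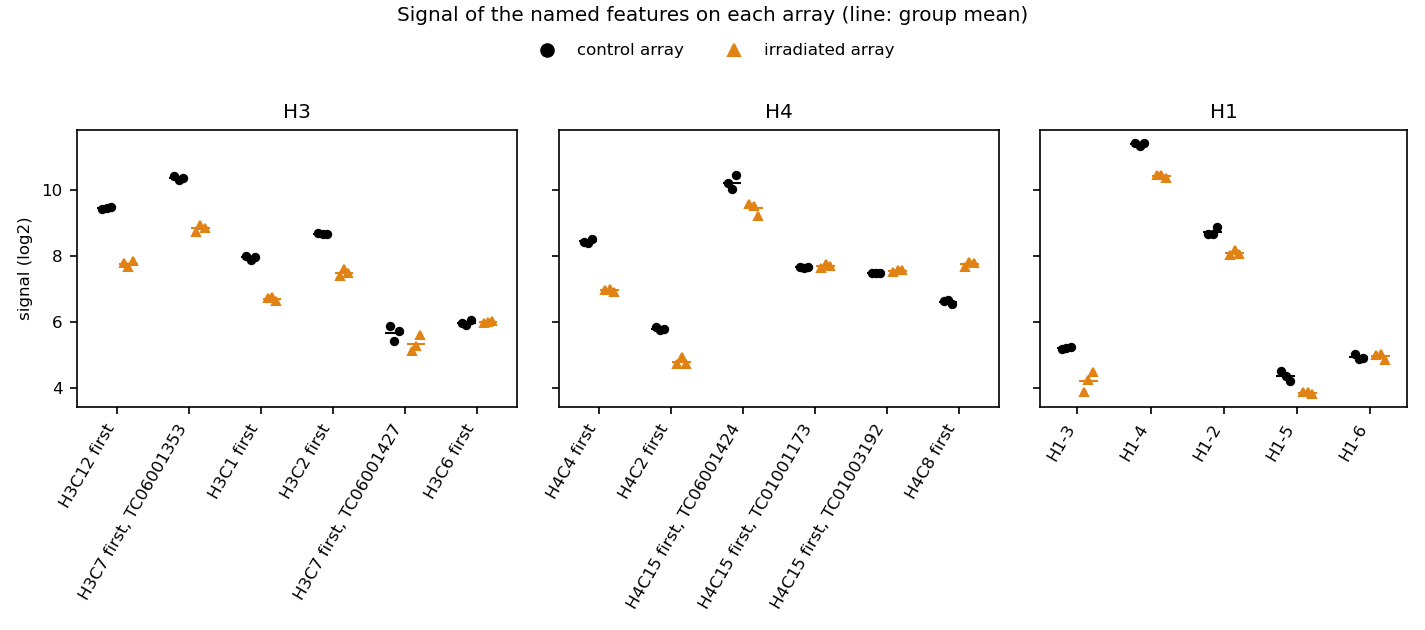
Log2 signal of 17 H3, H4 and H1 features on each array, with control arrays as circles, irradiated arrays as triangles and group means as lines. The irradiated arrays of H3C12-first lie at 7.66 to 7.84 against 9.41 to 9.48 in the controls, and those of H4C8-first lie above the controls.

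Linker histone H1 was measured by 6 features with 1 symbol each, so these results do not depend on the order of symbols. Of these 5 fell and 1 did not pass, with a median difference of -0.57. The number that fell was 3 without control 2 or without irradiated 3, and 4 without any other array. H1-4 had control signals of 11.42, 11.31 and 11.40 and irradiated signals of 10.44, 10.43 and 10.34. H1-4 fell 1.97-fold (log2 difference -0.98, SE 0.05, limma adjusted p = 3.15e-04), with a narrow spread in both groups. H1-3 had control signals of 5.18, 5.20 and 5.22 and irradiated signals of 3.88, 4.24 and 4.47. It fell 2.00-fold (log2 difference -1.0, SE 0.13, limma adjusted p = 0.00734), and its irradiated arrays were the more scattered group. The lowest irradiated signal lay near the background median, a rough guide only, and whether the difference understates the change was not tested. Without variance moderation H1-3 was not called (adjusted p = 0.0801 in the linear model of all features).

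H1-2 had control signals of 8.65, 8.65 and 8.86 and irradiated signals of 8.02, 8.17 and 8.04. It fell 1.56-fold (log2 difference -0.64, SE 0.08, limma adjusted p = 0.00444), without overlap of the groups. H1-5 had control signals of 4.50, 4.35 and 4.21 and irradiated signals of 3.86, 3.88 and 3.79. The fall of 0.51 on the log2 scale (SE 0.08, limma adjusted p = 0.0127) was no longer called without control 2 (0.0578) or without irradiated 3 (0.052). Its irradiated signals lay near the background median, and whether the difference understates the change was not tested. H1-1 had control signals of 4.22, 4.27 and 4.29 and irradiated signals of 3.99, 4.03 and 4.09. Its fall of 0.22 (SE 0.05, limma adjusted p = 0.0448) lost the call with any of the 6 arrays left out, at adjusted p-values of 0.0739 to 0.147. H1-6, the testis-specific linker histone H1t, had control signals of 5.03, 4.87 and 4.91 and irradiated signals of 4.99, 5.01 and 4.83. The groups overlapped, with a difference of 0.01 (SE 0.07, limma adjusted p = 0.972).

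Promoters of H1-4, which fell, and of H1-6, which gave no difference past the test, are shown because both hold the 3 elements marked below. They are 150 bases before the start in RefSeq (GRCh38.p14), on the coding strand. H1-4 lies at chr6:26156179-26156328 (plus strand) and H1-6 at chr6:26108136-26108285 (minus strand). Capitals mark AAACACA, the H1 box, CCAAT, and TATAA, each on either strand.
H1-4: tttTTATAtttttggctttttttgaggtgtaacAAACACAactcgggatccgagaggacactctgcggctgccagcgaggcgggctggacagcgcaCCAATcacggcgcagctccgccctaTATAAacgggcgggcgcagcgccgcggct
H1-6: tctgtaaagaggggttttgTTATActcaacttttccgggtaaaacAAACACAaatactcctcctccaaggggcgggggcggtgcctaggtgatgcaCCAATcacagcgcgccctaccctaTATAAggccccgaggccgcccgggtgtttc
AAACACA or its reverse complement TGTGTTT stood within 250 bases before the start of all 6 H1 genes, of 0 of 11 H3 genes, of 0 of 13 H4 genes and of 4.82% of all promoters. CCAAT was found in all 6 H1 genes, reading forward and beginning 53 to 57 bases before the start. TATAA was found in 5 of 6, all but H1-2. By contrast CCAAT was found in 3 of the 13 H4 genes. TATAA, on either strand, was found in 11 of 13 H4 genes, all but H4C14 and H4C15. In H4C9 the only TATAA match began 239 bases before the start.

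The falls were seen on each irradiated array. The median over the 12 H3 features, each taken relative to its control mean, was -0.84, -0.70 and -0.71 on irradiated arrays 1, 2 and 3. The corresponding medians were -0.41, -0.29 and -0.44 for the 15 H4 features and -0.60, -0.51 and -0.62 for the 6 H1 features. On the control arrays the same medians lay between -0.05 and 0.04 for all 3 classes.

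Calls among the 33 features varied with brightness. Among features with a mean signal of 7 or more, 14 of 17 fell and 1 rose, with a median difference of -0.76. Over all transcript clusters in that range, 1175 of 9293 fell and 691 rose (median -0.02). Between 5 and 7, 3 of 5 histone features fell (median -0.49), against 606 of 21031 transcript clusters (median 0.01). Below 5, 5 of 11 histone features fell (median -0.22), against 113 of 37204 (median 0.04). Group means of 3 of the dim features lay below the background median in both groups, and whether their differences are understated was not tested. Of the 8 features with 1 symbol 6 fell (median -0.57), and of the 25 with several symbols 16 fell and 1 rose (median -0.49).

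Factors that make, process and degrade histone mRNA were read from a list of 25 genes, of which 23 were measured with a symbol of their own. Of these 9 fell and 14 did not pass, and the median difference was -0.18. Over all transcript clusters 2.8% were called lower. The count was 606 of 21031 at a mean signal of 5 to 7 and 1175 of 9293 at 7 or more. Of the 9 factors that fell, 6 kept the call under every alternative that tested them. Among the genes of transcription and its control 6 of 9 fell. CCNE2, a cyclin E, had control signals of 4.87, 4.91 and 5.06 and irradiated signals of 3.78, 3.74 and 3.78. It fell by 1.18 on the log2 scale (SE 0.06, limma adjusted p = 2.58e-04), with wide separation. The irradiated signals lay at the background median, a rough guide only, and whether the difference understates the change was not tested. CDK2, the kinase partner of cyclin E, had control signals of 7.80, 7.76 and 7.87 and irradiated signals of 7.03, 7.08 and 7.11. It fell by 0.74 (limma adjusted p = 5.72e-04), whereas CCNE1, the other cyclin E, gave -0.18 (limma adjusted p = 0.144).

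NPAT, the coactivator, had control signals of 5.84, 5.80 and 5.91 and irradiated signals of 5.56, 5.62 and 5.58. The fall was small, 0.26 on the log2 scale (SE 0.05, limma adjusted p = 0.0255), and the adjusted p was 0.0627 to 0.0981 with any 1 of the 6 arrays left out. CASP8AP2, also called FLASH, which acts in histone gene expression and 3′ end processing, had control signals of 6.23, 6.26 and 6.26 and irradiated signals of 5.99, 5.95 and 6.01. It fell by 0.27 (limma adjusted p = 0.0155), with adjusted p-values of 0.0639, 0.0729 and 0.0547 without controls 1, 2 and 3 and 0.0591 without irradiated 2. SRRT, or ARS2, and NCBP1, a subunit of the cap-binding complex, fell by 0.45 and 0.38 (limma adjusted p = 0.00379 and 0.0044). HINFP, which binds the H4 promoter element, gave 0.07 (limma adjusted p = 0.522).

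Among the 3′ end factors 3 of 9 fell. SLBP had control signals of 8.20, 8.25 and 8.15 and irradiated signals of 7.67, 7.65 and 7.67. It fell 1.45-fold (log2 difference -0.54, SE 0.05, limma adjusted p = 0.00127), with almost no spread among the irradiated arrays. CSTF2, a subunit of the cleavage stimulation factor, fell by 0.51 (limma adjusted p = 0.00289). CPSF3, the endonuclease that cuts the histone pre-mRNA, fell by 0.25 (limma adjusted p = 0.0352), and any 1 array left out gave adjusted p-values of 0.0678 to 0.123. LSM10 and LSM11, proteins of the U7 particle that binds histone pre-mRNA, gave differences of -0.06 and -0.04. Among the 5 decay genes no call was made by limma, with or without moderation. An unadjusted limma p under 0.05 was given for 2 of them, the exonuclease ERI1 (log2 difference -0.19, limma adjusted p = 0.145) and the uridylyltransferase TUT7 (log2 difference 0.11, limma adjusted p = 0.253).

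**Figure D3:**
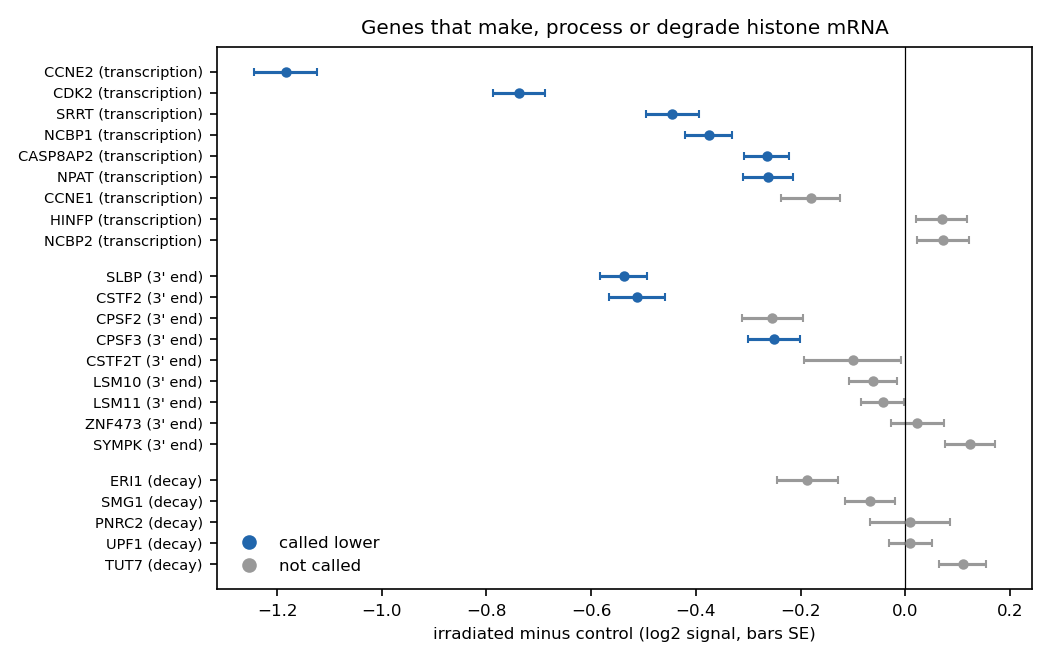
Difference, irradiated minus control in log2 signal, of 23 genes that act in making, processing or degrading histone mRNA. Points are estimates, bars are standard errors of the limma fit, and CCNE2 stands at -1.18, with irradiated signals at the background median.

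Other gene groups tied to replication gave the setting for these values, with 2.8% of all transcript clusters called lower. Of 37 features of the partner histones H2A and H2B 25 fell and 12 did not pass (median -0.71). Of 18 DNA replication genes 16 fell (median -0.71), and the exceptions were PCNA (-0.11) and TYMS (-0.17). Of 8 histones listed here as replication-independent 3 fell (median -0.21): the variants H2AZ1 (-0.90), H2AX (-0.83) and H2AZ2 (-0.45). Whether the expression of these 3 is uncoupled from replication in these cells was not tested. The medians of H3 (-0.75), H4 (-0.45) and H1 (-0.57) stand beside these as descriptions, and no difference between the groups was tested.

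**Figure D4:**
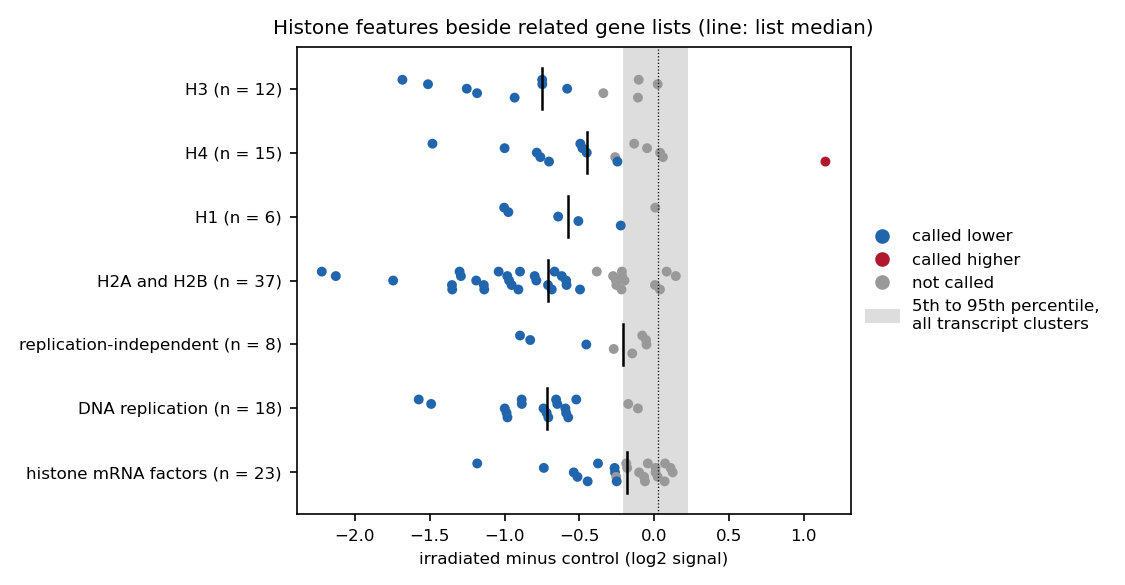
Difference, irradiated minus control in log2 signal, of each feature of H3, H4 and H1 and of 4 related lists, with the list median as a line. The grey band spans the 5th to 95th percentile of all transcript clusters, from -0.21 to 0.23. It shows the spread of single features and is no yardstick for a list median.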

How the data were processed

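Total RNA of 3 control and 3 irradiated H460 samples was measured on HTA 2.0 arrays. The authors deposited a table of log2 signals, which entered the fits unchanged. Its origin is not settled: RMA is named per the labels' descriptions, MAS5 per the submitters' processing notes, and the range of the values is that of log2 RMA signals. Of software versions, annotation build and detection calls, none is stated in the labels or the table. How the RNA was primed for labelling, which matters for mRNAs without a poly(A) tail, is not stated either. The number of arrays limits the precision.

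Of 70523 features, the 67528 transcript clusters were tested two-sided with limma 3.58.1 under R 4.3.3 (linear fit, empirical Bayes). P-values were adjusted over all of them by Benjamini-Hochberg, and adjusted values under 0.05 were called. The other 2995 features (array controls, exons and others) were left out, with an alternative that kept them. Symbols came from the platform annotation, updated through a RefSeq gene table. A gene of a list was taken from its brightest feature with that symbol alone. The histone features and all lists were chosen with earlier results of these data known. The rule for detailed values took, by class, up to 4 called features with the largest difference, called features opposite to most of their class, the 2 brightest not called and, of the factors, the 6 called with the largest difference plus NPAT, CASP8AP2 and SLBP. H1-1, H4C3 and H4C5-first were added after their values were seen, and CSTF2, SRRT and NCBP1 are given by their differences alone. Promoters were RefSeq windows (GRCh38.p14), searched on both strands over the 250 bases before the start, and identities came from global alignments with Biopython 1.88. The fit was tested on simulated data. Alternatives were an intensity trend, no moderation, quantile normalization, median centring, a mean signal of at least 5, identical rows once, all features, features with 1 symbol, a replicate block and each array left out.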

Additional observations from a re-analysis of the deposited data

How the results depend on the processing

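Of the 33 H3, H4 and H1 features, 14 of the 23 called ones kept their call under every alternative that tested them, and no call reversed. Quantile normalization and median centring each left 22 lower and 1 higher. The median of -0.51 was -0.75 over features with a mean signal of at least 5 and -0.57 over those with 1 symbol. The 22 lower became 13 without variance moderation and 6 of 8 with 1 symbol only, where the 1 higher became 0. The 5 H1 features that fell became 2 with the signal minimum, which leaves 2 H1 features to test, 2 without moderation and 3 to 4 with an array left out. The 9 H4 features became 4 without moderation and 5 to 8 with an array left out. For H2A and H2B, 25 became 15 without moderation. Over all transcript clusters, the 1894 lower and 1517 higher became 937 to 1270 and 622 to 1109 with an array left out, where fewer arrays enter, and the higher became 981 without moderation. With the signal minimum the total rose to 4841. Deviations from the group mean gave correlations of -0.011, -0.073 and -0.039 between same-numbered arrays and -0.068 to 0.107 between the others. With 3 arrays in each group these values cannot decide whether the numbers pair the arrays. The fit with the replicate block gave 16 of the 33 lower and 1 higher, 4 H4 features lower, and 928 lower and 670 higher transcript clusters. For the block fit and the other changes the cause was not tested. Without detection calls, dim features limit what can be said.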
